A study of Arabidopsis thaliana with 6 samples.

Results

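Calmodulin-like genes of Arabidopsis thaliana, taken as every row of the deposited FPKM table whose gene name is CML followed only by a number, were described in whole seedlings exposed to yttrium oxide nanoparticles. There were 46 such genes among the 32948 rows of the table. Treated seedlings were wild type (WT) and stood for 6 h on MS Medium that held the particles at 20 mM, and control seedlings were WT on MS Medium alone at the same 6 h. MS Medium is a standard plant culture medium, and yttrium is a rare-earth metal. Each group had 3 libraries, and the labels give no seedling age. Whether the libraries of a group came from separate cultures is not said, and the p-values below reflect library-to-library spread that could be technical in part.

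Calmodulin-like proteins (CMLs) are calcium sensors of plants. Like calmodulin they bind calcium in EF-hands, short helix-loop-helix folds whose loop holds the ion, and on binding change shape and attach to target proteins. Wounding, touch, cold, microbial patterns and many other stimuli raise free calcium in the cytosol, and CML genes are known as a family in which some members respond quickly to such stimuli and others are expressed mainly in one organ.

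The loop sequences of the members that moved most are shown to make the family's common feature visible and to show how these members differ in the number of loops. They were read from the annotated coding sequence of the RefSeq TAIR10.1 genome, whose start and end of all 46 genes equal those in the deposited table. The PROSITE EF-hand pattern was found at 6 places in the longest annotated protein of CML12 (324 residues), at 2 in CML45 (194 residues) and at 1 in CML46 (204 residues). Among all 46 members 19 had 4 matches, 12 had 3, 8 had 2, 5 had 1, 1 had 0 and CML12 alone had 6. A loop that departs from the pattern is not counted, so these are lower counts of loops. Each line gives the 12 codons of a loop from 5′ to 3′ on the coding strand, with its initial and final codons, which in most EF-hands encode acidic residues that hold calcium, in capitals.
CML12 loop 1: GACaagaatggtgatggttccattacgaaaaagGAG
CML12 loop 2: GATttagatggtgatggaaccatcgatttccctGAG
CML12 loop 3: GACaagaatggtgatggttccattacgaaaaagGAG
CML12 loop 4: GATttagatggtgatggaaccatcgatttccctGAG
CML12 loop 5: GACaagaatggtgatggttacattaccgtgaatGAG
CML12 loop 6: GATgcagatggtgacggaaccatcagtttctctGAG
CML45 loop 1: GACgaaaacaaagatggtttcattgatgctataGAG
CML45 loop 2: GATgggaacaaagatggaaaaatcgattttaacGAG
CML46 loop 1: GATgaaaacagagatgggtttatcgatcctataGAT
The CML12 loops lie on the plus strand at chr2:17138191-17138326, chr2:17138399-17138434, chr2:17138558-17138693, chr2:17138766-17138801, chr2:17138928-17139064 and chr2:17139137-17139172 (TAIR10.1), and loops 1, 3 and 5 are interrupted by an intron in the genome. Those of CML45 lie on the plus strand at chr3:11006193-11006228 and chr3:11006307-11006342, and that of CML46 on the plus strand at chr5:15883702-15883737. Loops 1 and 3 of CML12 are the same string of bases, and so are loops 2 and 4. The final codon is GAG in all of these loops except that of CML46, where it is GAT.

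Of the 46 members, 30 had a mean of at least 1 FPKM (fragments per kilobase of gene, scaled to the size of the library) over the 6 libraries and were tested, 7 had reads but lay under that level, and 9 were listed at 0 in every library. The test was limma on log2(FPKM + 1) across all 18614 genes past the filter, 2-sided, with Benjamini-Hochberg adjusted p under 0.05 as threshold. Changes are treated minus control on this log2(FPKM + 1) scale, where genes of low level appear less changed than they are, and carry the standard error (SE) of the model. Of the tested members, 8 of 30 rose and 1 fell, while the remaining 21 missed the threshold. Over all tested genes 8.07% were called higher and 6.41% lower, against 26.7% and 3.33% of the tested members. The median log2 change was 0.33 over the tested members and 0.000874 over all tested genes, which are descriptions with no test. With upper-quartile scaling in place of FPKM as deposited, 1198 of all genes were called higher and 1643 lower, against 1502 and 1194, and 22 in place of 23 of the 30 members had a positive change. CML43, the member that fell, cleared the filter only through the controls, and CML1 only through the treated libraries. Each had a mean under 1 FPKM in the other group. Treated libraries all lay above the controls in 12 tested members and all below in 1, and such separation was seen in 19.0% and 16.7% of all tested genes.

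Library totals recovered from the values were 19314683 to 23374306 reads. On the main axis of variance the second treated library stood between its group and the controls, at -25.0, with treated libraries 1 and 3 at -48.2 and -40.7 and controls at 32.2 to 43.7. Among 13 tested root tissue markers 10 were lower in treated seedlings and 0 higher by limma, edgeR and DESeq2, 8 of the 10 having cleared the filter only through the controls. The root list summed to 483 to 545 FPKM in treated libraries against 2017 to 2523 FPKM in controls. Without the abundant BGLU23 the other 15 root genes summed to 28.3 to 31.4 FPKM in treated and 68.2 to 71.0 FPKM in control libraries. CASP5, a Casparian strip gene, was at 0 FPKM in all treated libraries. Of 8 shoot markers limma, edgeR and DESeq2 each called 0, with 1 under 0.05 by limma before adjustment. Their part in the values below was not tested, and in bulk samples fewer cells of a type and less RNA per cell cannot be told apart.

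CML12, first known as the touch-induced gene TCH3, rose by the largest log2 change of the tested members on the log2(FPKM + 1) scale. It is AT2G41100 (chromosome 2, 17137037 to 17139700). Its level was 173, 92.7 and 133 FPKM in treated libraries 1, 2 and 3, against 24.2, 20.4 and 31.9 FPKM in control libraries 1, 2 and 3. Every treated library was thus well above every control, and treated library 2 was the lowest of its group. The log2 change was 2.32 (SE 0.246, limma adjusted p = 0.000888), and the ratio of group means was 5.22. The order depends on the scale, since CML46 had the larger ratio of means, 6.72, and the larger log2 change with a pseudocount of 0.1 (2.75, against 2.36 for CML12), with a pseudocount of 0.5 and with edgeR and DESeq2. CML12 supplied 11.99%, 7.38% and 12.9% of the summed FPKM of the family in treated libraries, against 2.73%, 2.63% and 3.83% in controls. Other-strand genes AT2G41105 and AT2G09220 overlap 43.9% of its span, introns included. Since the use of strand in counting is not given, its level is uncertain by an amount that is not known. Both of these genes were listed at 0 in all 6 libraries.

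CML10, the gene just before CML12 on the same strand, is known to act with an enzyme of ascorbate synthesis. Only 37 bases separate the annotated end of CML10 from the start of CML12, and their proteins are 51.8% identical over the shorter one. CML10 had 111, 221 and 82.4 FPKM in treated libraries, against 169, 194 and 83.4 FPKM in controls. The groups overlapped, and in each the highest library was over 2 times the lowest. The log2 change was -0.15 (SE 0.426, limma adjusted p = 0.851). The difference between these neighbours was not tested.

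CML45 and CML46 both rose. CML45 (AT3G29000, chromosome 3, 11005638 to 11006514) had 37.9, 38.8 and 27.2 FPKM in treated libraries, against 9.41, 5.23 and 7.84 FPKM in controls. Even the lowest treated value stood far above the highest control value, and the log2 change was 2.08 (SE 0.213, limma adjusted p = 0.000627). CML46 (AT5G39670, chromosome 5, 15883179 to 15884067), named in Arabidopsis as a negative regulator of salicylic acid accumulation, had 12.4, 6.87 and 6.98 FPKM in treated libraries, against 1.06, 0.673 and 2.18 FPKM in controls. Treated library 1 was the highest and the groups did not overlap. The log2 change was 2.09 (SE 0.291, limma adjusted p = 0.00323). On other scales CML46 changed by more than CML45, and the difference was not tested. The ratio of group means was 4.62 for CML45 and 6.72 for CML46, and the log2 changes with a pseudocount of 0.1 were 2.22 and 2.75. Other-strand genes AT5G39680 and AT5G05995 overlap 98.2% of the span of CML46. AT5G39680 had 0.768, 0.931 and 0.901 FPKM in treated libraries, against 0.650, 0.651 and 0.632 FPKM in controls, and AT5G05995 was listed at 0 throughout. As for CML12, the level of CML46 is uncertain by an amount that is not known. CML45 and CML46 lie on different chromosomes, and their proteins share 60.8% of the residues of the shorter one. CML47, another gene tied to salicylic acid, had 25.9, 10.8 and 7.27 FPKM in treated libraries, against 10.8, 8.21 and 12.7 FPKM in controls. Its groups overlapped, and its log2 change was 0.27 (SE 0.405, limma adjusted p = 0.696).

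**Figure D1:**
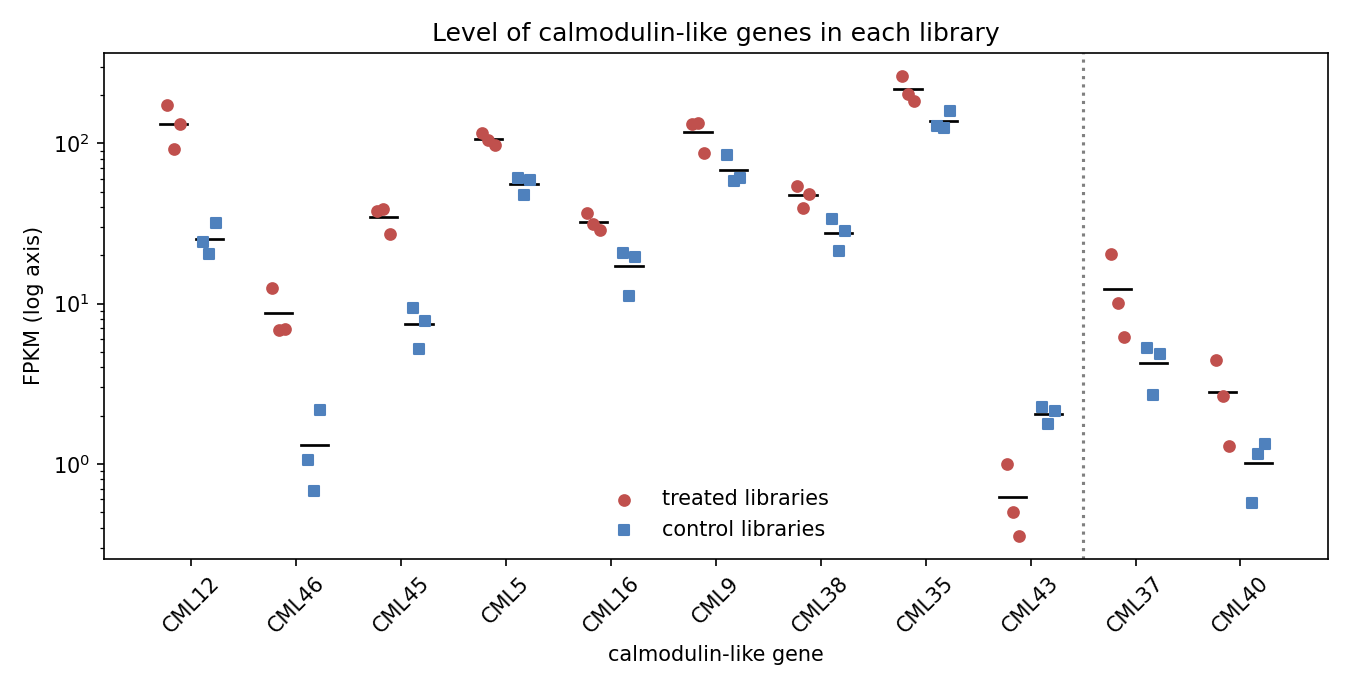
FPKM (log axis) of the 9 calmodulin-like genes past the threshold, in order of log2 change, and of CML37 and CML40 right of the dotted line, which did not pass it. Each point is 1 library (treated left, control right within a gene) and each bar the mean of 3 libraries. Treated CML12 values lie between 92.7 and 173 FPKM, all above its controls, and CML43 is the gene with treated values below its controls.

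CML5, CML35, CML9 and CML16 rose by less than 1 on the log2 scale. CML5, a protein tied to endomembrane vesicles, had 116, 106 and 97.9 FPKM in treated libraries, against 61.2, 47.4 and 59.2 FPKM in controls. These are the tightest groups among the members that rose (log2 change 0.92, SE 0.131, limma adjusted p = 0.00266). CML35, the most abundant member on average, had 264, 204 and 184 FPKM in treated libraries, against 128, 125 and 159 FPKM in controls. Its groups did not overlap, with the lowest treated library close above the highest control (log2 change 0.65, SE 0.159, limma adjusted p = 0.0288). CML9, known in Arabidopsis from salt, abscisic acid and flagellin responses, had 133, 134 and 87.0 FPKM in treated libraries, against 84.6, 58.0 and 61.1 FPKM in controls. Treated library 3 came within a few FPKM of control 1 (log2 change 0.78, SE 0.208, limma adjusted p = 0.0431). CML16 had 36.6, 31.5 and 28.9 FPKM in treated libraries, against 20.7, 11.1 and 19.5 FPKM in controls, with control 2 the lowest (log2 change 0.92, SE 0.223, limma adjusted p = 0.0315).

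CML37, CML38 and CML39 form a group of near relatives known from wounding, herbivory and low oxygen, and only 883 bases separate CML38 from CML39 on chromosome 1. CML38 had 54.6, 39.8 and 48.6 FPKM in treated libraries, against 33.7, 21.2 and 28.4 FPKM in controls, and it rose (log2 change 0.77, SE 0.184, limma adjusted p = 0.0274). CML37 had 20.5, 10.2 and 6.20 FPKM in treated libraries, against 5.28, 2.68 and 4.82 FPKM in controls. Its groups did not overlap, but treated library 1 was over 3 times treated library 3. The log2 change was 1.23 (SE 0.398, limma adjusted p = 0.0854), and it was past the threshold by edgeR and DESeq2 on recovered reads (adjusted p over all alternatives 0.000686 to 0.238). CML39 had 2.10, 1.04 and 0.586 FPKM in treated libraries, against 1.14, 1.14 and 1.12 FPKM in controls, which lay inside the treated range (log2 change 0.02, SE 0.234, limma adjusted p = 0.971).

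CML43 was the member that fell. It had 1.0, 0.497 and 0.356 FPKM in treated libraries, against 2.27, 1.78 and 2.13 FPKM in controls, from 22, 11 and 7 reads in treated and 46, 36 and 50 reads in control libraries. The groups did not overlap (log2 change -0.94, SE 0.181, limma adjusted p = 0.0112). With means of 0.618 FPKM in treated and 2.06 FPKM in control libraries, CML43 cleared the filter only through the controls. This p-value therefore adds little to the reads themselves. CML43 is known from root tips, and the root tissue markers were lower in the same libraries, a relation that was not tested. CML42, its closest relative, with 79.6% identity over the shorter protein, is a trichome and herbivory gene. CML42 had 18.5, 16.3 and 12.2 FPKM in treated libraries, against 17.2, 16.1 and 13.5 FPKM in controls (log2 change -0.01, SE 0.163, limma adjusted p = 0.984).

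Leaving out single libraries moved several of these calls. The number of members that rose was 4 without treated library 1 and 5 without control 2, and CML12, CML45, CML46 and CML5 kept their calls under all 19 alternatives. CML35 lost its call without treated library 1, control 1 or control 2, and CML43 without control 1 (limma adjusted p = 0.0564, and 0.00346 at the lowest over the other alternatives). CML38 lost its call without treated library 1, treated library 3, control 2 or control 3. CML16 lost its call without any single treated library and with array weights, and CML9 without treated library 1 or 2, without control 2 or 3, with array weights, with upper-quartile scaling and with no filter on low values.

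**Figure D2:**
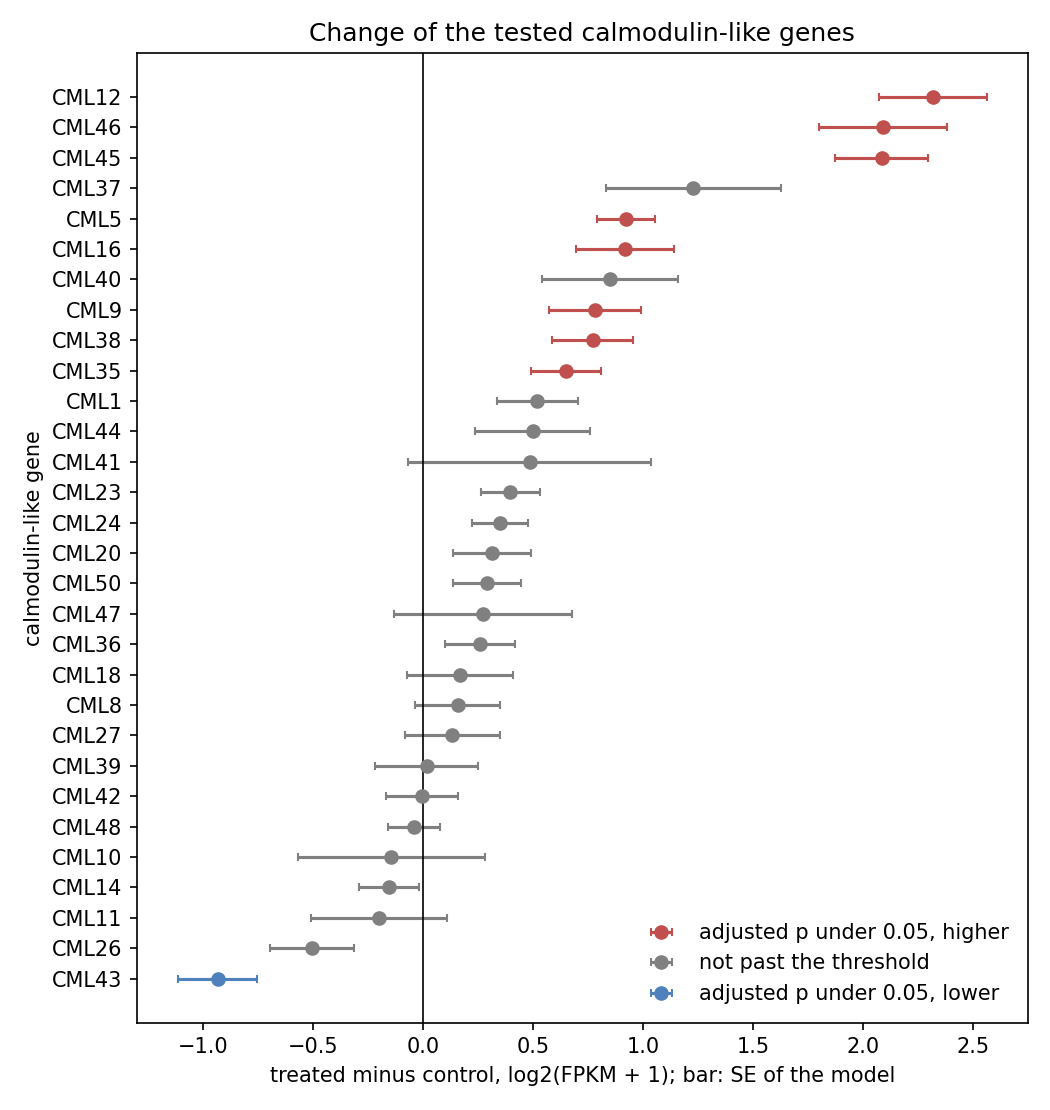
Log2 change, treated minus control on log2(FPKM + 1), of the 30 tested calmodulin-like genes, with the SE of the model as bars. Values run from -0.94 for CML43 to 2.32 for CML12, and 23 of the 30 lie above 0 (22 with upper-quartile scaling).

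Of the 21 tested members that did not pass the threshold, 15 had a positive and 6 a negative log2 change, between -0.51 (CML26) and 1.23 (CML37). CML40 had 4.44, 2.66 and 1.299 FPKM in treated libraries, against 0.572, 1.15 and 1.32 FPKM in controls, so treated library 3 lay inside the control range (log2 change 0.85, limma adjusted p = 0.113). It was past the threshold with DESeq2 on recovered reads and without treated library 3 (adjusted p over all alternatives 0.0167 to 0.299). Genes on the other strand overlap 70.1% of its span. CML1 had 1.77, 1.91 and 1.44 FPKM in treated libraries, against 1.304, 0.523 and 0.902 FPKM in controls, from at most 24 reads a library (limma adjusted p = 0.0988). CML26 had 9.60, 13.4 and 11.2 FPKM in treated libraries, against 19.9, 18.1 and 12.3 FPKM in controls (log2 change -0.51, limma adjusted p = 0.118, and 0.0353 to 0.321 over the alternatives, the lowest of them without control 3). CML44 had 17.2, 11.5 and 8.14 FPKM in treated libraries, against 8.09, 6.30 and 10.1 FPKM in controls (limma adjusted p = 0.253). CML50, among the 6 most abundant members, had 80.1, 64.7 and 64.6 FPKM in treated libraries, against 54.1, 48.5 and 69.3 FPKM in controls (limma adjusted p = 0.257). A p that misses the threshold does not show that a gene kept its level.

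The touch-induced set shows this range in a small group. TCH3 is CML12, which rose. CML24, which is TCH2, had 66.5, 66.0 and 64.1 FPKM in treated libraries, against 55.4, 43.0 and 56.3 FPKM in controls, close but not overlapping (log2 change 0.35, limma adjusted p = 0.105). The other-strand gene AT5G37760, with at most 4 reads in a library, overlaps 34.3% of the span of CML24. CAM2, the calmodulin gene TCH1, had a log2 change of 0.25 (limma adjusted p = 0.350). XTH22, the cell wall enzyme gene TCH4, had 977, 517 and 580 FPKM in treated libraries, against 770, 571 and 939 FPKM in controls (log2 change -0.16, limma adjusted p = 0.728).

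Treated libraries differed among themselves across the family. Treated library 1 was the highest of its group in 22 of 30 tested members and treated library 2 in 8, and treated library 3 in 0. Control 2 was the lowest of its group in 23 of the 30. Such counts were not taken over all tested genes, so they cannot be read as particular to the family. The summed level of the 46 members was 1444, 1256 and 1034 FPKM in treated libraries 1, 2 and 3, against 886, 777 and 833 FPKM in controls 1, 2 and 3. Without CML12 the sums were 1271, 1164 and 900.3 FPKM in treated libraries, against 861, 756 and 801 FPKM in controls. CML41, a plasmodesmal protein known from the flagellin response, had 29.9, 12.95 and 5.04 FPKM in treated libraries, against 8.27, 6.40 and 12.9 FPKM in controls. Treated library 1 was above and treated library 3 below every control (log2 change 0.48, SE 0.551, limma adjusted p = 0.602).

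Close relatives were compared by the log2 ratio of their FPKM + 1 within each library, for the 5 pairs of tested members with at least 70% protein identity. The pairs were taken after the values were seen, and with 3 against 3 libraries the exact permutation test cannot go below 0.1. The ratio of CML42 to CML43 was 3.37 ± 0.141 in treated and 2.44 ± 0.211 in control libraries (SD, n = 3 each), with no overlap (exact permutation p = 0.1, adjusted 0.25). That of CML38 to CML39 was 4.49 ± 0.424 in treated and 3.73 ± 0.329 in control libraries (exact permutation p = 0.1, adjusted 0.25, n = 3 each). CML43 and CML38 were already called above, so these ratios largely restate those calls and are no separate support. The ratio of CML24 to CML23, which share 76.4% identity, was 1.84 ± 0.0555 in treated and 1.89 ± 0.0769 in control libraries (exact permutation p = 0.4, n = 3 each). For CML27 to CML26 and for CML11 to CML8 the groups overlapped (exact permutation p = 0.3 in both, n = 3 each).

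**Figure D3:**
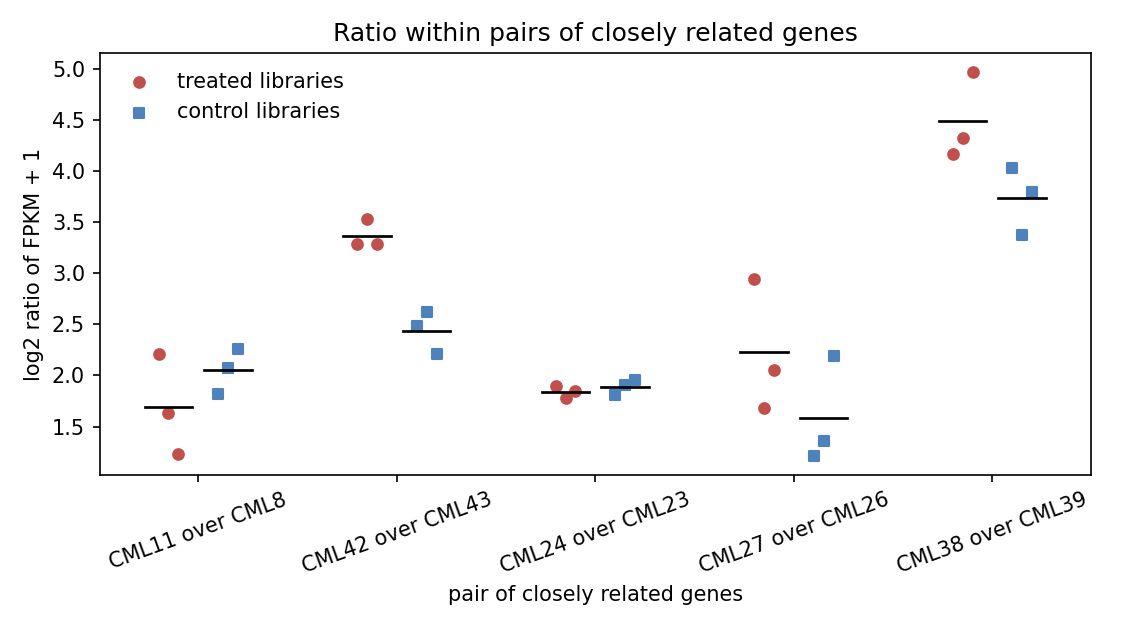
Log2 ratio of FPKM + 1 between the members of 5 closely related pairs in each library, treated left and control right, with the mean of 3 libraries as a bar. The groups are apart for CML42 over CML43, where treated libraries average 3.37 and controls 2.44, and for CML38 over CML39.

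Of the 7 members with reads under the tested level, CML25, a pollen tube calcium sensor, was the most abundant. It had 0, 0 and 1 reads in treated libraries 1, 2 and 3, against 21, 22 and 20 reads in controls. The treated rate was 0.0159 times the control rate, with an exact 95% interval of 0.000396 to 0.0917 that covers counting error only. By edgeR on recovered reads with a filter on counts, a test added after seeing the data, its edgeR adjusted p was 0.00115, where 7.83% of 20221 genes were called lower. By limma with a minimum mean of 0.2 FPKM its log2 change was -0.92 (adjusted p = 0.00206). It cleared both filters only through the controls, so these p-values add little to the reads themselves. Root tissue markers were lower in the same libraries, and their part here was not tested either. The other 6, CML3, CML28, CML7, CML29, CML17 and CML6, had at most 6 reads in any library, too few to show a difference.

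The 9 members listed at 0 in all libraries fall into 2 sets. CML15, CML13, CML4, CML30 and CML2 have 97.5% to 100% of their span covered by an opposite-strand gene, and the other 4, CML32, CML34, CML33 and CML31, have no such overlap. CML13 lies wholly inside AT1G12320, which had 2.66, 1.88 and 2.38 FPKM in treated libraries, against 2.05, 1.41 and 1.68 FPKM in controls. CML15 lies almost wholly inside AT1G18540, which had 314, 285 and 267 FPKM in treated libraries, against 345, 329 and 303 FPKM in controls. CML14, whose protein is 94.6% identical to that of CML13, had 21.7, 18.1 and 16.4 FPKM in treated libraries, against 22.4, 18.1 and 22.3 FPKM in controls and no overlapping gene. A value of 0 in these 5 genes can be a failure to assign reads, and their expression is not known from this table. CML46, with 98.2% overlap, was counted all the same. Its main overlap is with AT5G05995 (15883195 to 15884130), annotated as a long non-coding RNA gene and listed at 0. The protein-coding AT5G39680 begins only at 15884001, near the end of CML46. In contrast, the genes that cover the 5 members at 0 are protein-coding and had reads. These overlaps are of spans with introns, and how far the exons overlap was not measured, so the genes need not be alike. Among the exons of the 46 members, runs of 50 bases found elsewhere in the genome or repeated in the gene made up 3.66% in CML12, at most 0.855% in 3 others and 0 in 42.

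The upstream sequence of some members is shown so that members that rose can be set beside members that did not pass the threshold. Each is the 250 bases before the annotated gene start in RefSeq TAIR10.1, 5′ to 3′ on the gene's strand, with the matches to the searched motifs in capitals. The motifs were CGCG, the core of the site of CAMTA calmodulin-binding factors, CGCGTT, known as the rapid stress response element and holding that core, the W box forms TTGACC and TTGACT bound by WRKY factors, and ACGTG, the core of the abscisic acid response element, all on both strands. CML45 (chr3:11005388-11005637, plus strand) and CML46 (chr5:15882929-15883178, plus strand) rose, while CML24 (chr5:14999620-14999869, minus strand) and CML23 (chr1:24771394-24771643, minus strand) did not pass the threshold. In both CML24 and CML23 every treated library still lay above every control. CML23 had 17.2, 18.5 and 17.05 FPKM in treated libraries, against 15.1, 10.8 and 13.8 FPKM in controls (log2 change 0.40, SE 0.134, limma adjusted p = 0.0863).
CML45: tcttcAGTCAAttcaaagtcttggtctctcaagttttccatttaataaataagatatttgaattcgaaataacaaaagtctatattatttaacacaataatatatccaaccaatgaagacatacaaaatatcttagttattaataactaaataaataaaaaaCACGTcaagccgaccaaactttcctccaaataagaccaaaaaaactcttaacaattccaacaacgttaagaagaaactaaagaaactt
CML46: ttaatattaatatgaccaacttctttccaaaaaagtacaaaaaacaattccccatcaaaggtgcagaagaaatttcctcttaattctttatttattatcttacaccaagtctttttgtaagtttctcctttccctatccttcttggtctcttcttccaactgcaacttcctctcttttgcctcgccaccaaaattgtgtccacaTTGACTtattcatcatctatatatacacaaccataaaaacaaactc
CML24: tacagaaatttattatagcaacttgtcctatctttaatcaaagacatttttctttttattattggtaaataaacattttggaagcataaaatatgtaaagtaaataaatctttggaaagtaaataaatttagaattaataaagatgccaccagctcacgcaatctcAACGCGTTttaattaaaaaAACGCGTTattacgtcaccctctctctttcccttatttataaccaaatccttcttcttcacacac
CML23: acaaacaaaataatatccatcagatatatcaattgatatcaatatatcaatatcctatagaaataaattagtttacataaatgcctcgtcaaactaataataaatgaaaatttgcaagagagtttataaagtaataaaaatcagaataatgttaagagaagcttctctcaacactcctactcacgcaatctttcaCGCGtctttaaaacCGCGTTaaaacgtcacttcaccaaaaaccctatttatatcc
Both CML45 and CML46 hold TTGACT on one of the strands, which 19.1% of 27443 promoters of protein-coding genes hold. CML45 also holds ACGTG on the opposite strand. CML24 and CML23 hold CGCGTT, which 2.59% of all promoters hold, and they were the only 2 of the 46 members with it. Among the 8 members that rose 1 held CGCG (10.1% of all promoters), 0 held CGCGTT, 1 held TTGACC (12.2%), 2 held TTGACT and 2 held ACGTG (22.9%). Among the 21 tested members that missed the threshold 3 held CGCG, 2 held CGCGTT, 1 held TTGACC, 2 held TTGACT and 5 held ACGTG. The sequences shown are a choice and do not stand for their groups. A match is a description of these letters and not a bound site. The window of CML12 overlaps CML10 and is not shown.

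Other genes of calcium signalling were counted from lists chosen by family name, 195 genes in 13 lists. Genes of a family that carry another name were not caught, so a list need not hold the whole family. Of 149 tested, 20 rose and 4 fell, with 125 short of the threshold, beside 8.07% higher and 6.41% lower calls over all genes. Among the channels that let calcium in, 2 of 14 tested cyclic nucleotide-gated channel (CNGC) genes rose, CNGC20 (log2 change 0.59, limma adjusted p = 0.0184) and CNGC13 (0.90, adjusted p = 0.0210). GLR2.1, a glutamate receptor-like channel, fell to 1.45, 1.26 and 1.55 FPKM in treated libraries, against 4.18, 4.29 and 4.33 FPKM in controls (log2 change -1.12, limma adjusted p = 0.000772), and the other 10 tested GLR genes did not pass. Among the 9 GLR genes under 1 FPKM, 3 with more reads than most, picked after their values were seen, lay the other way. GLR2.8 had 99, 64 and 65 reads in treated libraries, against 20, 4 and 23 reads in controls. GLR2.5 had 109, 80 and 52 reads in treated libraries, against 14, 33 and 39 reads in controls. GLR1.2 had 90, 42 and 49 reads in treated libraries, against 26, 22 and 37 reads in controls. Not all of the 9 lay that way. GLR2 (AT2G17260), also among those with more reads, had 57, 91 and 26 reads in treated libraries. Its controls had 61, 49 and 51 reads, and the groups overlapped. GLR2.2 was lower, with 2, 2 and 5 reads in treated libraries, against 18, 9 and 24 reads in controls. Of the 2 genes in the OSCA and TPC1 channel list limma, edgeR and DESeq2 each called 0, as did limma before adjustment.

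Of the other sensors, limma, edgeR and DESeq2 each called 0 of the 7 calmodulin genes, and limma found 0 under 0.05 before adjustment. Their log2 changes lay between -0.01 and 0.25, and their sum was 671 to 850 FPKM in treated and 659 to 788 FPKM in control libraries. Calmodulin genes have close copies whose reads can be shared. Among 7 tested CBL sensors, partners of the CIPK kinases, CBL6 fell (log2 change -0.92, limma adjusted p = 0.0102), with means of 0.830 FPKM in treated and 2.45 FPKM in control libraries, and so cleared the filter only through the controls.

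Among the calcium-dependent protein kinases, which carry EF-hands of their own, 5 of 24 tested rose by limma, and limma, edgeR and DESeq2 each called 0 lower. CPK32 had 54.8, 39.0 and 53.7 FPKM in treated libraries, against 19.5, 15.6 and 21.8 FPKM in controls (log2 change 1.32, SE 0.169, limma adjusted p = 0.00153), and CPK28, a brake on immune signalling, had a log2 change of 0.96 (adjusted p = 0.00162). CPK11 and CPK10 rose by 0.82 and 0.65. Of 23 tested CBL-interacting kinases 6 rose and 2 fell. CIPK14 had a log2 change of 0.94 (limma adjusted p = 0.00428), CIPK16 of 0.98 and CIPK17 of 0.95. CIPK16 averaged 1.83 FPKM in treated and 0.441 FPKM in control libraries, and CIPK17 2.39 FPKM in treated and 0.732 FPKM in control libraries, so both, and 3 of the 6 that rose in all, cleared the filter only through the treated group. CIPK23, a regulator of potassium and nitrate uptake, had a log2 change of -0.65 (limma adjusted p = 0.00566).

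In the CBP60 family of calmodulin-binding transcription factors 4 of the 7 listed genes rose, and limma, edgeR and DESeq2 each called 0 lower. CBP60G, an activator of salicylic acid synthesis, had 23.0, 13.7 and 18.3 FPKM in treated libraries, against 4.68, 3.61 and 5.61 FPKM in controls (log2 change 1.77, SE 0.204, limma adjusted p = 0.00101). CBP60A, which in Arabidopsis acts against immunity with CML46 and CML47, had a log2 change of 1.22 (adjusted p = 0.00262), SARD1 of 1.45 (adjusted p = 0.0351) and CBP60C of 0.46 (adjusted p = 0.0252). CAMTA3, another calmodulin-binding factor, rose by 0.79 (limma adjusted p = 0.00781), and the other 2 CAMTA genes in the list, CAMTA2 and CAMTA4, did not pass.

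Among genes that remove calcium from the cytosol, the pump gene ACA1 rose by 1.01 (limma adjusted p = 0.0294) and the exchanger gene CCX2 by 0.67 (adjusted p = 0.0492), out of 12 and 10 tested. On recovered reads edgeR and DESeq2 each called 3 pump and 2 exchanger genes higher. ACA13, another pump gene, named after its values were seen, had 30.3, 13.2 and 11.7 FPKM in treated libraries, against 4.49, 5.47 and 8.64 FPKM in controls, with no overlap and a larger log2 change than ACA1 (1.35, limma adjusted p = 0.0501). EdgeR and DESeq2 also each called 3 CNGC and 8 CIPK genes higher, and DESeq2 called 6 calcium-dependent protein kinases higher. The shares of all genes that edgeR and DESeq2 called higher are not given here. Their counts therefore cannot be read as particular to these lists. Limma, edgeR and DESeq2 each called 0 of 24 IQD genes, whose products bind calmodulin, and 0 of 5 annexins. Before adjustment limma gave 5 IQD genes and 1 annexin under 0.05, all of them lower in treated libraries. By the same measure 15 of 30 tested calmodulin-like genes, 11 of 23 CIPK, 6 of 7 CBP60 and 4 of 14 CNGC genes were under 0.05, in either direction. The share over all tested genes is not given here, so these unadjusted counts cannot be read as particular to a list. The number of these 195 genes that rose was 11 without treated library 1, 9 without control 1 and 7 without control 2. Whether any list differed from another was not tested.

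**Figure D4:**
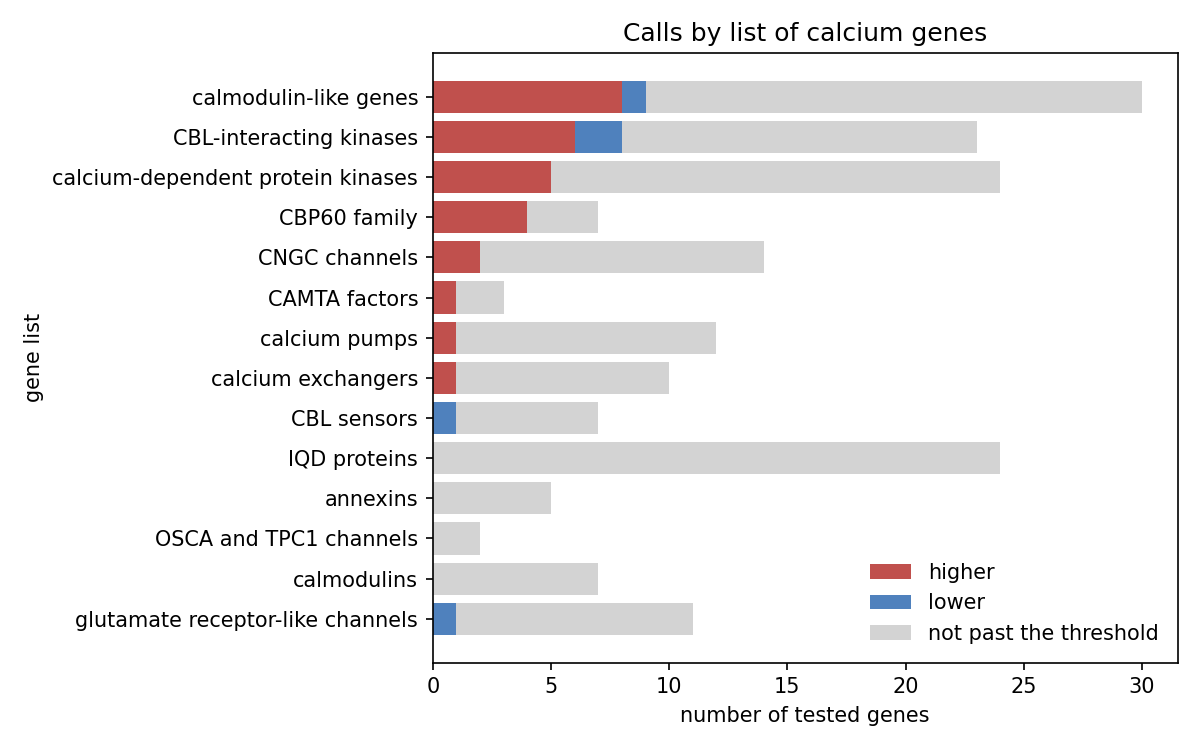
Number of tested genes (horizontal axis) that were higher, lower or not past the threshold in treated seedlings, for calmodulin-like genes and 13 lists of other calcium genes. Calmodulin-like genes had 8 higher and 1 lower of 30, and the calmodulins, annexins, IQD proteins and the OSCA and TPC1 list had 0 calls.

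The authors' deposited table lists 2104 genes with an adjusted p under 0.05 and an absolute log2 fold change above 1, which is 8.27% of the 25437 genes with a read in any library. It holds 7 of the 46 members. In the authors' deposited table the log2 fold changes, treated over control, were 2.74 for CML46, 2.38 for CML12, 2.21 for CML45, 1.53 for CML37, 1.46 for CML40, -1.73 for CML43 and -5.87 for CML25. The last rests on 1 treated read and is no measure of size. CML37 and CML40, listed there, did not pass limma, while CML5, CML9, CML16, CML35 and CML38, which rose by limma with log2 changes of 0.65 to 0.92, are not among those 2104 genes.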

How the data were processed

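RNA-seq of 3 treated and 3 control libraries, made from total RNA, was compared, with groups taken from the treatment label. Alignment with HISAT2 2.0.5 and use of the TAIR10 build come per the submitters' processing notes. How reads were counted, with which annotation release, strand setting or filters, is not given in the sources used here. Per the file headers the authors deposited FPKM values with gene lengths and a comparison table with a signal per library (counts divided by 1 size factor), log2 fold changes and p-values. Of 32548 gene IDs in the reference, 99.95% had the deposited start and end.

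Read counts were recovered as FPKM times length over the value of 1 read (100% whole within 0.01), because depth is then known. A count of 0 allows 3 reads, or 0.129 to 0.154 FPKM at 1 kb. Intervals and floors cover counting error only. Pairs of libraries of 1 group differed by a chi-square of 12.3 to 34.9 per degree of freedom, so no library repeated another.

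Genes with a mean of at least 1 FPKM were fitted with limma 3.58.1 (R 4.3.3, eBayes with trend and robust, treatment as the only term, pseudocount 1). This step was tested on simulated counts. Alternatives were edgeR 4.0.16 and DESeq2 1.42.0 on the recovered reads, other filters, pseudocounts and scalings, and each library left out. Protein identity used Biopython 1.88, global alignment. Named members were those past the threshold, the 6 most abundant, the 5 largest changes not past it and those in the deposited table, with the near relatives, the touch set, CML41, CML47 and the unread members added after their values were seen. Of other lists up to 4 genes past the threshold were named, and others, such as ACA13 and the low GLR genes, were added after their values were seen. Members and lists were chosen with earlier results of these data known.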

Additional observations from a re-analysis of the deposited data

How the results depend on the processing

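Of 564 values of tested members under 19 alternatives, 537 kept their direction, where called, and their side of the threshold, 19 lost and 8 gained a call, and no called member changed direction. With each library left out in turn, the members called higher numbered 4 to 8 and those called lower 0 to 2, the other calcium genes 7 to 22 higher and 3 to 6 lower, and all genes 697 to 1950 higher and 696 to 1467 lower. The median log2 change of the members was then 0.21 to 0.43. With a minimum mean of 5 FPKM, 0 members, 2 other calcium genes and 676 genes in all were called lower, since fewer genes were tested. The members called lower were 2 with no filter, with a minimum of 0.2 FPKM and with edgeR and a read-count filter, where CML25 was tested. Upper-quartile scaling gave 1198 genes higher and 1643 lower against 1502 and 1194, with 7 members higher and 1 lower. The cause was not tested.

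Equal replicate numbers are not said to pair the samples, and their deviations correlated at 0.0861, 0.383 and 0.101 for numbers 1, 2 and 3. Treated library 1 deviated more like control 3 (0.302) than like control 1. With the replicate block 9 members were higher and 1 lower, 23 and 5 of the other calcium genes, and 1840 and 1416 of all genes, and CML37 was called (adjusted p = 0.0370). With 3 libraries a group, changes of members with few reads (CML43, CML1, CML39) are the least precise.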
